A study of Homo sapiens with 24 samples.

Results

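The genes described here were the 44 nuclear genes that encode subunits of respiratory complexes II, III and IV and of ATP synthase, together with cytochrome c. They were chosen by name, and array probes were assigned to them through the transcript for which each probe was designed. Of the 44 genes, 43 had a probe and all 43 passed the filter on dim probes, among 21240 genes tested in all. COX7A1, an isoform of complex IV found in heart and skeletal muscle, had no probe that could be assigned to it. The 43 genes comprised 4 subunits of complex II, 9 of complex III, cytochrome c, 13 of complex IV and 16 of ATP synthase, which is also called complex V.

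The respiratory chain of the inner mitochondrial membrane passes electrons from NADH and succinate to oxygen and pumps protons, and ATP synthase uses the proton gradient to make ATP. Complex II (succinate dehydrogenase) feeds electrons from succinate to ubiquinone, complex III passes them to the small carrier cytochrome c, and complex IV (cytochrome c oxidase) passes them to oxygen. Rotenone blocks complex I, which takes electrons from NADH and hands them to ubiquinone ahead of complex III. Complexes III, IV and V also contain subunits made from mitochondrial DNA. Of these, 6 were listed and 0 could be tested on this array.

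RNA was measured in 3D aggregates of LUHMES cells, a human line that stops dividing when differentiated and takes on properties of dopaminergic neurons, on 24 single-color arrays in 8 groups of 3. On day 7 of differentiation aggregates received 50 nM rotenone for 12 h, 50 nM rotenone for 24 h, 100 nM rotenone for 24 h or DMSO, the solvent, in the amount used for 100 nM. Each of the 4 treatments was collected directly after exposure, called day 8, and in other wells after removal of the compound and 7 days of recovery, on day 15. All groups shared the line, the shaken 3D culture and a differentiation medium with cAMP, GDNF and tetracycline, and nothing in the labels shows that wells came from separate cultures, so that p values measure the spread between these wells. Values are log2 intensities after background correction, normalization and correction of slide 1, and differences are on the log2 scale. Genes were called with limma at a Benjamini-Hochberg adjusted p under 0.05 over all genes.

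Between 50.9% and 82.4% of the spots were well above background on each array. Each slide held 1 array of every group, always at the same position, so that position and group cannot be told apart. The third array of 100 nM on day 15 stood apart, with a residual SD over all genes of 0.451 against 0.205 to 0.312 on the other 23 arrays. All 6 neuron markers were well above background on all arrays, as were 5 of 6 markers of dopaminergic neurons, whereas 0 of 5 astrocyte markers were. In these bulk samples, fewer cells of a type and less RNA per cell cannot be told apart. Of the 43 subunit genes, 42 were well above background on all 24 arrays and COX4I2 on 14. Their SD within groups had a median of 0.108 and ranged from 0.051 to 0.47, against a median of 0.222 over all genes.

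Promoter sequence was at hand for 34 of the 44 genes, in 39 windows that covered the 250 bases before an annotated start of transcription (RefSeq, GRCh38.p14). NRF1 and ETS-family factors are known regulators of nuclear genes for respiratory subunits. The core of the NRF1 motif, GCGCANGCG on either strand, was found in 11 of the 39 windows (28.2%) and in 6.56% of the 35116 windows of all genes. The ETS core CCGGAAG was found in 13 windows (33.3%), against 8.52% of all windows. TATAAA was found in 4 windows (10.3%), against 10.7%, and the E-box CANNTG in 23 (59%), against 61.8%. The median number of CpG dinucleotides was 18, against 11 over all windows. These matches describe the letters of the windows and not sites of binding.

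The windows of 3 genes are shown because the results below turn on them. COX6A1 and COX6A2 encode the general and the muscle isoform of the same complex IV subunit and include the only member called with a difference over 1.5-fold (COX6A2, between the days), and COX7B was called after rotenone. The windows lie at chr12:120437863-120438112 on the plus strand for COX6A1, chr16:31428361-31428610 on the minus strand for COX6A2 and chrX:77899218-77899467 on the plus strand for COX7B. They are written 5′ to 3′ and capitals mark the matches to the motifs above.
COX6A1: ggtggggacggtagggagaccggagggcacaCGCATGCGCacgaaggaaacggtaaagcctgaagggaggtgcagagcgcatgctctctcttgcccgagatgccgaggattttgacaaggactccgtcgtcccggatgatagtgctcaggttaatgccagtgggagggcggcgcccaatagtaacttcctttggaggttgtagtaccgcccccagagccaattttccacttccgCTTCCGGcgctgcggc
COX6A2: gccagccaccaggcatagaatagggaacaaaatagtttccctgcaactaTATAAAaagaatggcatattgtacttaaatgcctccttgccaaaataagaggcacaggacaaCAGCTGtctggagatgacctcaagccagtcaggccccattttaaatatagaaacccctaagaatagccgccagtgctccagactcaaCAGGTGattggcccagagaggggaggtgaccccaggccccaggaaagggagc
COX7B: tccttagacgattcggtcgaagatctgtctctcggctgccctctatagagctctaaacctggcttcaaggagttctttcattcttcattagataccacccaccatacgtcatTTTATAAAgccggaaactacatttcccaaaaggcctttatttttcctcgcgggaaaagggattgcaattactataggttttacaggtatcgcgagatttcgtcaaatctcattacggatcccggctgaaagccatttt
The COX6A1 window held 19 CpG dinucleotides, 1 NRF1 core and 1 ETS core. The COX6A2 window held 1 CpG dinucleotide, 1 TATAAA and 2 E-boxes, with neither an NRF1 nor an ETS core. The COX7B window held 13 CpG dinucleotides and 2 overlapping matches to TATAAA on opposite strands.

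The first comparison asked how RNA of these subunits differed right after 24 h of 100 nM rotenone. ATP5MC2 and COX7B rose, by 1.22-fold and 1.29-fold, and 0 of the 43 genes fell. With the slide as a block 3 genes were called, since ATP5PD then also fell (-0.37, limma adjusted p = 0.0039). The first 2 genes were 4.65% of the 43, against 9.48% of all genes called. At an unadjusted p under 0.05 there were 9 genes (20.9%), against 20.6% of all genes. Of the 43 genes, 0 were called with a difference over 1.5-fold, against 3.45% of all genes. The 95% interval lay within 1.5-fold in either direction for 38 genes, and reached past it for ATP5PD, COX4I2, COX6A2, COX7B and SDHB. These counts average the probes of a gene. The 38 genes include UQCRB, whose 2 probes were called in opposite directions (0.61 and -1.02), as described below, so its averaged interval does not bound either probe.

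The log2 differences of the 43 genes ranged from -0.53 to 0.37. Their median was -0.04, against -0.02 over all genes, with 18 higher and 25 lower. The sign of this median depended on the scaling, since it was 0.09 when processed signals were scaled by their 75th percentile, where the median of all genes was 0.10, and 0.11 with the 75th percentile in place of quantile normalization, where the median of all genes was -0.02. By complex, with quantile normalization, the medians were 0.07 for complex II, -0.08 for complex III, -0.04 for complex IV and -0.06 for ATP synthase. The 3 rotenone arrays did not overlap the 3 DMSO arrays for 16 genes (37.2%), 7 higher and 9 lower, against 28.5% of all genes.

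**Figure D1:**
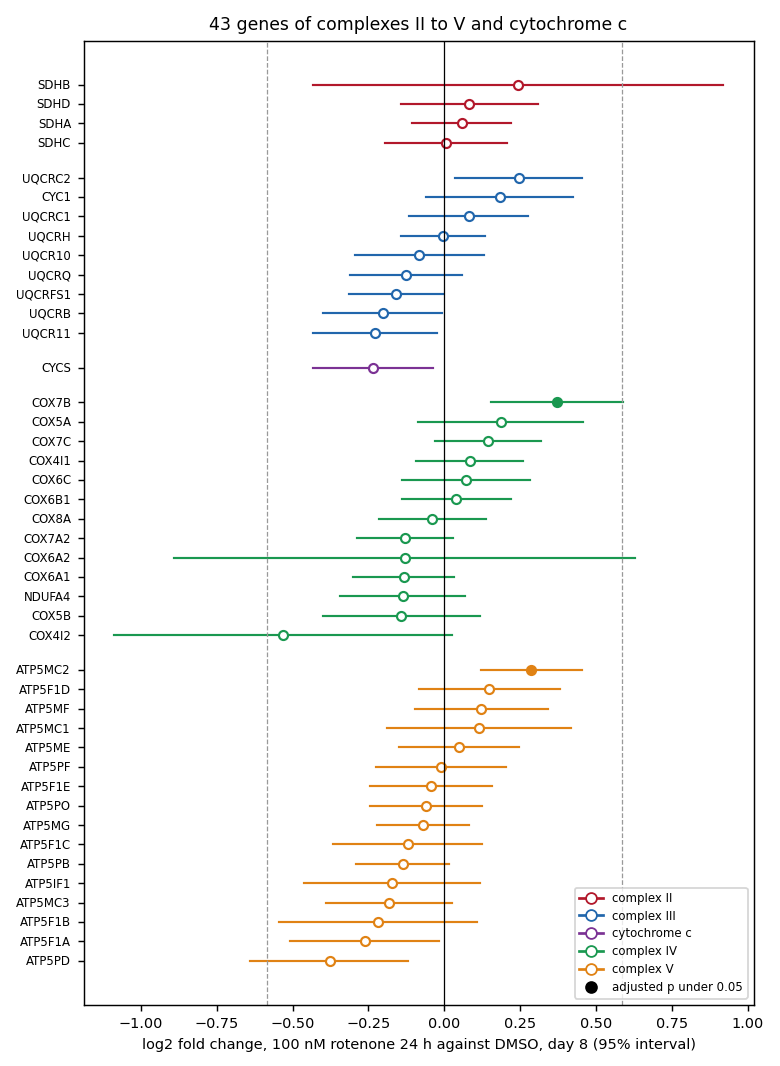
Log2 difference between 100 nM rotenone for 24 h and DMSO on day 8 (x axis) for each of the 43 genes, ordered by complex on the y axis, with the 95% interval from limma. ATP5MC2 and COX7B are the called genes, and the intervals of 38 genes lie within 1.5-fold. UQCRB is shown as the average of probes that moved in opposite directions.

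Complex II consists of 4 subunits, all encoded in the nucleus, and 0 of them were called after rotenone on day 8. SDHB, the iron-sulfur subunit, measured 10.10, 10.20 and 10.16 in DMSO on day 8. It measured 10.25, 10.59 and 10.35 after 100 nM and 10.42, 10.58 and 10.41 after 50 nM for 24 h. Its values were 10.35, 10.26 and 10.44 after 50 nM for 12 h. The rotenone arrays of all 3 groups thus lay above the DMSO arrays, which the groups share. The difference was 0.24 (SE 0.32, limma adjusted p = 0.78) for 100 nM, with the wide error shared over all groups. On the third array of 100 nM on day 15, which stood apart over all genes, SDHB measured 8.23, against 10.15 and 10.23 on the other arrays of that group. Without this array, an alternative chosen after the data were seen, the difference was 0.25 (SE 0.10, limma adjusted p = 0.11) for 100 nM and 0.31 (SE 0.10, adjusted p = 0.049) for 50 nM for 24 h, so that SDHB was then called in the latter comparison.

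SDHD, a membrane anchor of complex II, had the smallest p of its complex after 100 nM. It measured 7.94, 7.45 and 7.87 in DMSO and 7.82, 7.86 and 7.83 after 100 nM. The rotenone arrays lay inside the range of the DMSO arrays, of which the second was low. The difference was 0.08 (SE 0.11, limma adjusted p = 0.78), and it was -0.08 without the second DMSO array. SDHA, the flavoprotein subunit, differed by 0.06 (SE 0.08, limma adjusted p = 0.79), and SDHC, the other anchor, by 0.01 (SE 0.10, adjusted p = 0.99).

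In complex III, 0 of 9 subunits were called after rotenone on day 8 when the probes of a gene were averaged. UQCRC2, a core subunit, measured 11.35, 11.58 and 11.24 in DMSO and 11.62, 11.75 and 11.54 after 100 nM. The third rotenone array lay below the second DMSO array, so that the groups overlapped. The difference was 0.25 (SE 0.10, limma adjusted p = 0.15) for 100 nM and 0.31 (SE 0.10, adjusted p = 0.064) for 50 nM for 24 h. With a block for the slide and no correction of slide 1, the latter was 0.31 with a limma adjusted p of 0.035. It was also called without DMSO replicate 2 (0.41, limma adjusted p = 0.025) and without replicate 3 of 50 nM for 24 h (0.38, adjusted p = 0.049). UQCR11, a small accessory subunit, differed by -0.23 (SE 0.10, limma adjusted p = 0.18) for 100 nM.

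UQCRB, which binds ubiquinone in complex III, was measured by 2 probes that were designed to different RefSeq transcripts of the gene, and these probes moved in opposite directions. It was singled out after its values were seen. The averaged value differed by -0.20 (SE 0.09, limma adjusted p = 0.22) after 100 nM. The probes are called brighter and dimmer by their mean intensity, as names only. The brighter probe measured 11.84, 12.07 and 11.91 in DMSO and 12.57, 12.51 and 12.56 after 100 nM. The dimmer probe measured 8.47, 8.69 and 8.50 in DMSO and 7.35, 7.83 and 7.45 after 100 nM. For each probe the groups did not overlap, with rotenone above DMSO for the brighter probe and below it for the dimmer.

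In a fit of 29394 named probes, the brighter UQCRB probe rose by 0.61 (SE 0.12, limma adjusted p = 0.0027) and the dimmer fell by 1.02 (SE 0.13, adjusted p = 8.1e-05). For 50 nM and 24 h the differences were 0.61 (limma adjusted p = 0.0035) and -0.78 (adjusted p = 0.0012). At 12 h of 50 nM they were 0.37 (limma adjusted p = 0.094) and -0.68 (adjusted p = 0.0044). On day 15 after 100 nM they were -0.13 (limma adjusted p = 0.84) and -0.10 (adjusted p = 0.89). Which transcripts each probe detects was not tested. Of the 11 subunit genes with several probes, 7 had probes of opposite sign after 100 nM, and UQCRB had the widest range among the 11 in this comparison.

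**Figure D2:**
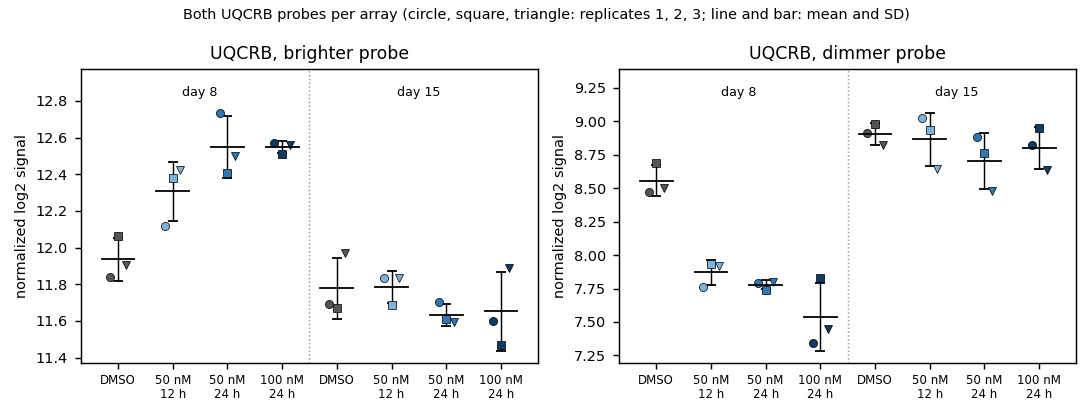
Log2 intensity (y axis) of the brighter and the dimmer UQCRB probe on each array in the 8 groups (x axis), with symbols for replicates 1, 2 and 3 and lines and bars for the mean and SD of each group. On day 8 the brighter probe is higher and the dimmer probe lower in the 3 rotenone groups than in DMSO, and on day 15 each rotenone group overlaps DMSO.

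Cytochrome c (CYCS), the carrier between complexes III and IV, fell after 50 nM for 12 h, against the DMSO arrays that also served for 24 h. The sample titles give no exposure time for DMSO, so a control matched to 12 h is not shown. It measured 10.64, 10.45 and 10.52 in DMSO on day 8 and 10.03, 10.23 and 10.34 after 50 nM for 12 h. All 3 exposed arrays lay below the DMSO arrays. The difference was -0.34 (SE 0.09, limma adjusted p = 0.042), the only call in that comparison, or 2.33% of the 43 genes against 5.52% of all genes. Its 3 probes differed by -0.38 to -0.27. CYCS measured 10.34, 10.24 and 10.32 after 100 nM for 24 h, a difference of -0.23 (SE 0.09, limma adjusted p = 0.14), and 10.51, 10.44 and 10.53 after 50 nM for 24 h, a difference of -0.05 (SE 0.09, adjusted p = 0.89). The call was lost without any of the 3 DMSO arrays or without replicate 1 or 2 of 50 nM for 12 h, with differences of -0.39 to -0.23 and limma adjusted p values of 0.053 to 0.19. On slides 2 and 3 alone the difference was -0.19 (limma adjusted p = 0.70).

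In complex IV, COX7B was called among 13 subunits. COX7B encodes a small membrane subunit. It measured 12.64, 12.84 and 12.67 in DMSO on day 8 and 13.12, 13.05 and 13.09 after 100 nM for 24 h. It measured 13.25, 13.05 and 13.19 after 50 nM for 24 h, and after 50 nM for 12 h 12.63, 13.06 and 13.00. All arrays exposed for 24 h lay above DMSO, whereas the first array exposed for 12 h lay among the DMSO arrays. COX7B rose by 0.37 (SE 0.10, limma adjusted p = 0.029) after 100 nM and by 0.45 (SE 0.10, adjusted p = 0.01) after 50 nM for 24 h. The difference was 0.18 (SE 0.10, limma adjusted p = 0.42) after 50 nM for 12 h, and without replicate 1 of that group it was 0.35 and called (adjusted p = 0.044). Without replicate 1 or 3 of DMSO or any 1 of the 3 arrays of 100 nM, the difference at 100 nM was 0.32 to 0.39 and the limma adjusted p was 0.053 to 0.12. On slides 2 and 3 alone it was 0.30 (limma adjusted p = 0.32). At 50 nM for 24 h the call was lost without replicate 1 of either group, at 0.40 and limma adjusted p values of 0.052 and 0.054.

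COX7C, another small subunit, differed by 0.25 (SE 0.08, limma adjusted p = 0.073) after 50 nM for 24 h, or by 0.50 and 0.52 with the 2 scalings to the 75th percentile (adjusted p = 0.016 and 0.02), and by 0.14 (SE 0.08, adjusted p = 0.37) after 100 nM. COX7A2, the general isoform of the subunit whose muscle isoform is COX7A1, differed by -0.13 (SE 0.08, limma adjusted p = 0.38) after 100 nM. COX4I1, the general isoform of the largest nuclear subunit, differed by 0.08 (SE 0.08, limma adjusted p = 0.68). COX4I2, its isoform linked to low oxygen and known from the lung, was well above background on 2 of 3 DMSO arrays and on 1 of 3 arrays of 100 nM. Its difference of -0.53 (SE 0.27, limma adjusted p = 0.27), the lowest of the 43, thus rests on arrays near background. COX6A1 differed by -0.13 (SE 0.08, limma adjusted p = 0.38) and COX6A2 by -0.13 (SE 0.36, adjusted p = 0.92).

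In ATP synthase, ATP5MC2 was called among 16 genes. ATP5MC1, ATP5MC2 and ATP5MC3 each encode a precursor of the same subunit c, which forms the rotating ring in the membrane, and the mature subunit is identical. ATP5MC2 measured 14.46, 14.43 and 14.62 in DMSO on day 8 and 14.82, 14.77 and 14.78 after 100 nM for 24 h. After 50 nM for 24 h it measured 14.82, 14.71 and 14.89, and after 50 nM for 12 h 14.55, 14.67 and 14.80. Both groups exposed for 24 h lay above DMSO on every array, and the group exposed for 12 h overlapped DMSO on its first array. ATP5MC2 rose by 0.29 (SE 0.08, limma adjusted p = 0.027) after 100 nM and by 0.31 (SE 0.08, adjusted p = 0.021) after 50 nM for 24 h. The difference was 0.17 (SE 0.08, limma adjusted p = 0.28) after 50 nM for 12 h. With either scaling to the 75th percentile the differences at 24 h were larger, 0.51 at 100 nM (limma adjusted p = 0.014 and 0.023) and 0.56 at 50 nM (adjusted p = 0.0084 and 0.013).

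The call of ATP5MC2 at 100 nM was lost without DMSO replicate 1 or 2 or without any 1 of the 3 rotenone arrays, with differences of 0.25 to 0.30 and limma adjusted p values of 0.057 to 0.11. On slides 2 and 3 alone the difference was 0.24 (limma adjusted p = 0.46). At 50 nM for 24 h the call was lost without DMSO replicate 1 or 2 or without replicate 1 or 3 of the exposed group, at 0.26 to 0.30 and limma adjusted p values of 0.069 to 0.10. ATP5MC1 differed by 0.11 (SE 0.15, limma adjusted p = 0.77) after 100 nM. ATP5MC3 differed by -0.18 (SE 0.10, limma adjusted p = 0.33). Whether the genes of subunit c differed from each other in response was not tested.

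ATP5PD, subunit d of the stalk that holds the catalytic head, measured 14.18, 13.86 and 14.27 in DMSO on day 8. It measured 13.72, 13.61 and 13.84 after 100 nM, 13.79, 13.67 and 13.90 after 50 nM for 24 h and 13.76, 13.73 and 13.97 after 50 nM for 12 h. The second DMSO array was low, at a level near the exposed arrays, and all 3 arrays of 100 nM lay below all DMSO arrays. Without DMSO replicate 2 the difference at 100 nM was -0.49 and called (limma adjusted p = 0.024). The difference was -0.38 (SE 0.12, limma adjusted p = 0.064) after 100 nM, -0.31 (adjusted p = 0.15) after 50 nM for 24 h and -0.28 (adjusted p = 0.25) after 50 nM for 12 h. The second array was low in each group of day 8, and with the slide as a block ATP5PD was called in all 3 comparisons. Its differences were then -0.37 (limma adjusted p = 0.0039), -0.30 (adjusted p = 0.016) and -0.26 (adjusted p = 0.044), respectively. ATP5F1A, the alpha subunit of the catalytic head, differed by -0.26 (SE 0.12, limma adjusted p = 0.20) after 100 nM.

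**Figure D3:**
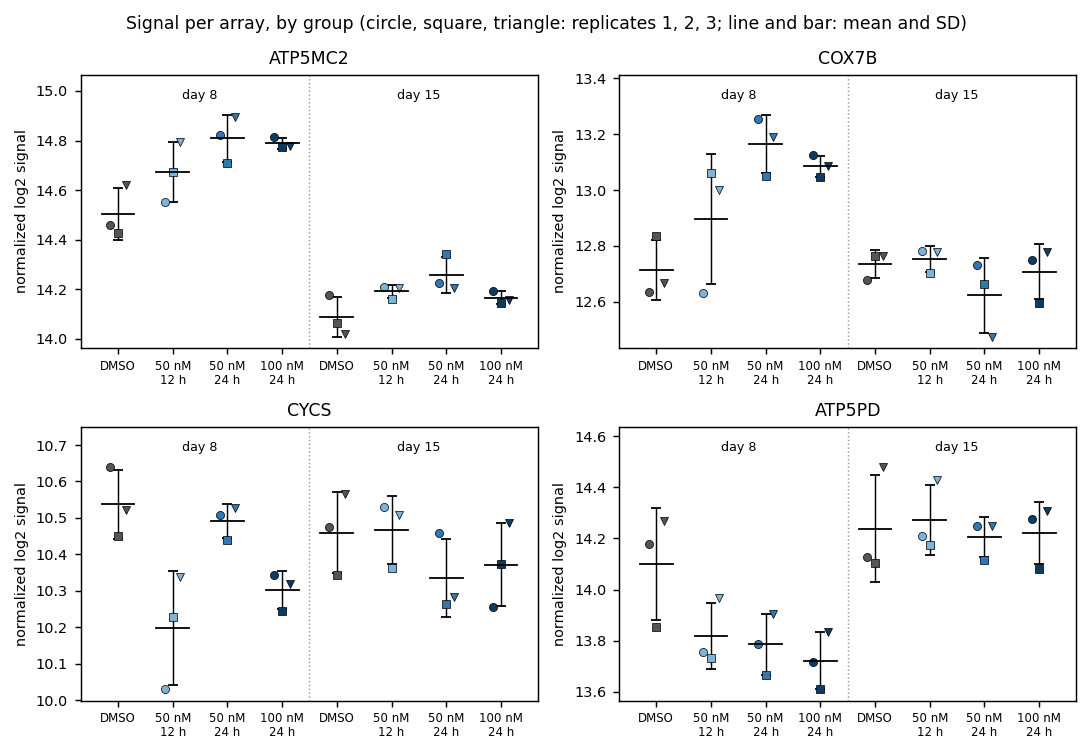
Log2 intensity (y axis) of ATP5MC2, COX7B, CYCS and ATP5PD on each array in the 8 groups (x axis), with symbols for replicates 1, 2 and 3 and lines and bars for the mean and SD of each group. ATP5MC2 and COX7B are higher than DMSO after 24 h of either dose on day 8, CYCS has its lowest mean after 12 h on day 8, and all day 15 arrays of ATP5MC2 lie below its day 8 arrays.

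The day 8 groups also allowed a comparison of dose, and both exposure times of 50 nM were compared with DMSO. The 50 nM groups at 12 h and 24 h were not compared with each other, so a difference between these times was not tested. After 50 nM for 24 h, 2 of 43 genes were called (4.65%, both up), against 8.02% of all genes, and 8 had an unadjusted p under 0.05 (18.6%, against 19.6%). With the slide as a block 4 were called, since ATP5PD and UQCRC2 were added. At 12 h of 50 nM, 1 was called, against 5.52% of all genes, or 2 with the slide as a block, and 4 had an unadjusted p under 0.05 (9.3%, against 16.8%). These comparisons share the DMSO arrays with that of 100 nM. Between 100 nM and 50 nM at 24 h, 0 of the 43 genes were called with limma, against 0% of all genes, and 2 had an unadjusted p under 0.05 (4.65%, against 4.17%). All 13 complex IV genes had a lower mean at 100 nM than at 50 nM, by 0.01 to 0.20 with a median difference of -0.06, but genes of an array are not independent. Over all 43 genes the median was -0.06, and -0.13 with either scaling to the 75th percentile. The interval of this difference lay within 1.5-fold for 41 of the 43 genes. The smallest p was that of COX7A2, which differed by -0.20 (unadjusted p = 0.019, limma adjusted p = 1).

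On day 15, after removal of rotenone and recovery, 0 of 43 genes were called after 100 nM for 24 h, against 0% of all genes, and 1 had an unadjusted p under 0.05 (2.33%, against 7.21%). After 50 nM for 24 h, 0 were called, against 0% of all genes, and 3 had an unadjusted p under 0.05 (6.98%, against 3.28%). After 50 nM for 12 h, 0 were called, against 0% of all genes, and 0 had an unadjusted p under 0.05, against 3.47%. The 95% intervals lay within 1.5-fold for 40 of the 43 genes in each of these comparisons. For 100 nM the groups did not overlap for 3 genes (6.98%), against 7.84% of all genes.

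SDHD had the smallest p of complex II after recovery. It measured 7.34, 7.41 and 7.50 in DMSO on day 15 and 7.24, 7.20 and 7.08 after 100 nM. The exposed arrays lay below the DMSO arrays, with a difference of -0.25 (SE 0.11, limma adjusted p = 0.67). In complex III UQCRC1, a core subunit, differed by 0.15 (SE 0.09, limma adjusted p = 0.74), in complex IV COX6A2 by 0.50 (SE 0.36, adjusted p = 0.77) and in ATP synthase ATP5PB, a subunit of the stalk, by -0.09 (SE 0.07, adjusted p = 0.80). ATP5MC2 differed by 0.08 (SE 0.08, limma adjusted p = 0.85), and COX7B by -0.03 (SE 0.10, adjusted p = 0.97).

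The change of the 100 nM effect from day 8 to day 15 was tested as an interaction, and 0 of 43 genes were called, against 2.44% of all genes. At an unadjusted p under 0.05 there were 3 (6.98%, against 14.4%), COX7B (-0.40, SE 0.15, limma adjusted p = 0.19), UQCRC2 (-0.32, SE 0.14, adjusted p = 0.30) and SDHD (-0.33, SE 0.15, adjusted p = 0.33). The difference of ATP5MC2 between the days was -0.21 (SE 0.11, limma adjusted p = 0.43). A loss of the rotenone effect on ATP5MC2 and COX7B by day 15 was thus not shown by this test. The separate UQCRB probes were called in the fit of all probes, at -0.74 (SE 0.17, limma adjusted p = 0.025) for the brighter and 0.91 (SE 0.19, adjusted p = 0.013) for the dimmer.

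**Figure D4:**
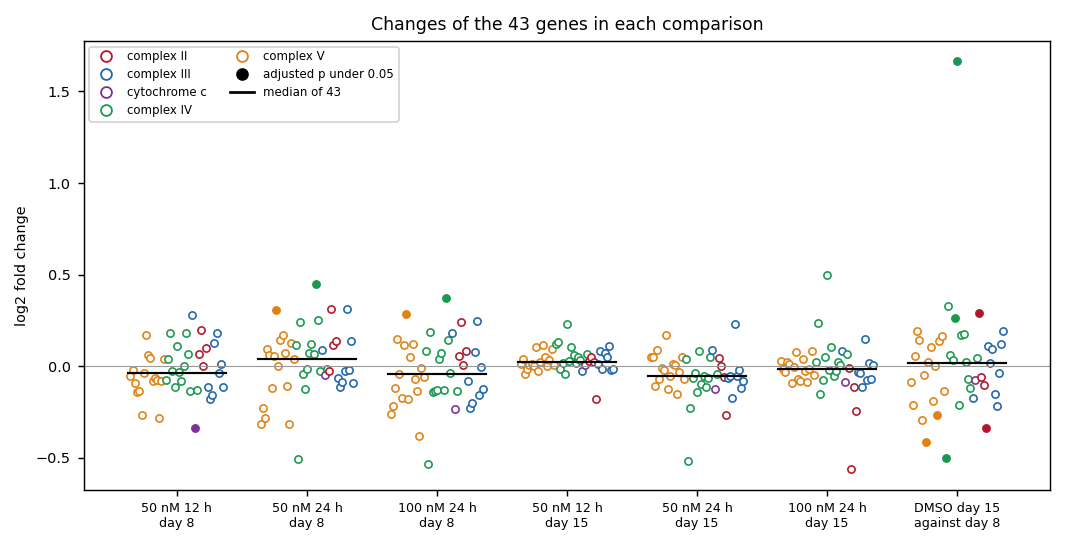
Log2 differences of the 43 genes (points, by complex) in the comparisons with DMSO on day 8 and day 15 and between the DMSO groups of both days. Filled points were called and lines mark the medians. At least 42 of the 43 points lie within 0.5 of 0 in each of these comparisons.

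The last comparison, between DMSO on day 15 and on day 8, followed further differentiation without rotenone. Of the 43 genes, 7 were called (16.3%), against 23.2% of all genes. COX6A2, SDHA and COX6A1 rose, and COX4I1, ATP5MC2, SDHD and ATP5PB fell. COX6A2 was the only one called with a difference over 1.5-fold, against 12.2% of all genes. At an unadjusted p under 0.05 there were 12 genes (27.9%), against 33.7% of all genes. The groups did not overlap for 13 genes (30.2%), against 40.0% of all genes. With the slide as a block 8 were called, with ATP5IF1, the inhibitor of ATP synthase, added at -0.29 (limma adjusted p = 0.0072).

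COX6A2 measured 7.10, 7.07 and 6.55 in DMSO on day 8 and 8.67, 8.17 and 8.88 in DMSO on day 15. All day 15 arrays lay above all day 8 arrays. COX6A2 rose by 1.66 (SE 0.36, limma adjusted p = 0.0022), or 3.17-fold. After recovery from 100 nM it measured 9.44, 8.76 and 9.002, and after recovery from 50 nM for 24 h 7.34, 8.97 and 8.98, the first array being low. Its general isoform COX6A1 measured 15.42, 15.48 and 15.33 on day 8 and 15.67, 15.75 and 15.60 on day 15, again without overlap. COX6A1 rose by 0.26 (SE 0.08, limma adjusted p = 0.020), a call that was lost without replicate 3 of day 8 or replicate 1 or 2 of day 15, at 0.22 to 0.26 and adjusted p values of 0.051 to 0.088.

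Between the DMSO groups, 6 of 7 listed markers of skeletal muscle were higher on day 15, as was COX6A2. Of these markers, 5 were called (71.4%, against 23.2% of all genes). Of 7 listed, 5 were well above background on all 24 arrays, and their summed level was 12.80 to 13.15 in DMSO on day 8 and 14.21 to 14.81 on day 15. Called markers included DES, a muscle intermediate filament, at 2.07 (SE 0.41, limma adjusted p = 0.00089), and TNNT1, a troponin of slow muscle, at 1.54 (SE 0.13, adjusted p = 4e-08). MYOG, a defining regulator of the list, differed by -0.19 (SE 0.18, limma adjusted p = 0.49). ACTA1, an actin of skeletal muscle on the list, differed by 1.26 (SE 0.49, limma adjusted p = 0.073). On day 8 ACTA1 rose by 2.24 after 100 nM (limma adjusted p = 0.0057). After 50 nM for 24 h and 12 h it rose by 2.41 (limma adjusted p = 0.004) and 2.04 (adjusted p = 0.017). COX6A2 differed by -0.13, -0.02 and 0.11 in these day 8 comparisons and was not called. In the first array of 50 nM for 24 h on day 15, where COX6A2 was low, DES was also low at 9.83, against 11.73 and 11.96 on the others. The part of the muscle genes in the COX6A2 result was not tested. Other markers moved between the DMSO groups of the 2 days. Of 6 neuron markers, 1 was called (16.7%, against 23.2% of all genes), MAP2 at -0.46 (SE 0.11, limma adjusted p = 0.0064). Of 6 dopaminergic markers, 4 were called (66.7%, against 23.2% of all genes), 2 down and 2 up. TH, the rate-limiting enzyme of dopamine synthesis, differed by -2.95 (SE 0.23, limma adjusted p = 2.2e-08), and SLC6A3, the dopamine transporter, by -2.07 (adjusted p = 1.3e-05). The transcription factors NR4A2 and PITX3 rose by 1.57 (limma adjusted p = 2.3e-07) and 0.46 (adjusted p = 0.041). Of 6 markers of dividing precursors, TOP2A, CCNB1, CDK1 and MKI67 were called and fell (66.7%, against 23.2% of all genes). Of these CCNB1, the one well above background on all arrays, differed by -1.34 (SE 0.29, limma adjusted p = 0.0021). NES, the brightest of the list, differed by 0.40 (SE 0.19, limma adjusted p = 0.15). The summed level of the list, in which NES weighs most, was 10.64 to 10.92 on day 8 and 10.84 to 11.18 on day 15. SOX2 of this list was above background on 0 arrays. After rotenone on day 8, MAP2 differed by -0.57 at 100 nM (SE 0.11, limma adjusted p = 0.0028). At 50 nM for 24 h it differed by -0.49 (SE 0.11, limma adjusted p = 0.011). MAP2 was the 1 of 6 neuron markers called there (16.7%, against 9.48% and 8.02% of all genes). The part of these markers in the members' differences was not tested.

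COX4I1 measured 13.20, 13.20 and 13.36 in DMSO on day 8 and 12.78, 12.74 and 12.74 on day 15. The groups did not overlap, and COX4I1 fell by 0.50 (SE 0.08, limma adjusted p = 0.00022), or 1.41-fold. For its isoform COX4I2, 2 of 3 arrays were well above background in each of these groups, and the difference was 0.33 (SE 0.27, limma adjusted p = 0.43). COX7A2 differed by 0.17 (SE 0.08, limma adjusted p = 0.11), and without replicate 1 of day 15 by 0.25 (adjusted p = 0.039).

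In complex II the flavoprotein and an anchor moved in opposite directions. SDHA measured 10.19, 10.12 and 10.18 on day 8 and 10.55, 10.39 and 10.41 on day 15. It rose by 0.29 (SE 0.08, limma adjusted p = 0.011), and its 4 probes differed by 0.17 to 0.37. SDHD, with the day 8 values above and 7.34, 7.41 and 7.50 on day 15, fell by 0.34 (SE 0.11, limma adjusted p = 0.028), although the low second array of day 8 lay within the range of day 15. The SDHA call was lost without replicate 1 of day 15 (0.23, limma adjusted p = 0.07). The SDHD call was lost without replicate 1 or 3 of day 8 or replicate 1 or 2 of day 15, at -0.33 to -0.22 and limma adjusted p values of 0.069 to 0.18.

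In ATP synthase the gene that rose after rotenone fell between the days. ATP5MC2, at the day 8 values above, measured 14.18, 14.07 and 14.02 in DMSO on day 15, below all day 8 arrays. It fell by 0.41 (SE 0.08, limma adjusted p = 0.00075). ATP5MC1 differed by -0.05 (SE 0.15, limma adjusted p = 0.87) and ATP5MC3 by 0.02 (SE 0.10, adjusted p = 0.92). ATP5PB measured 12.26, 12.22 and 12.29 on day 8 and 12.00, 11.95 and 12.02 on day 15, without overlap, and fell by 0.27 (SE 0.07, limma adjusted p = 0.012). On slides 2 and 3 alone COX6A2, COX4I1 and ATP5MC2 differed by 1.77, -0.53 and -0.46 (limma adjusted p = 0.017, 0.024 and 0.032), and the other 4 genes were not called.

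**Figure D5:**
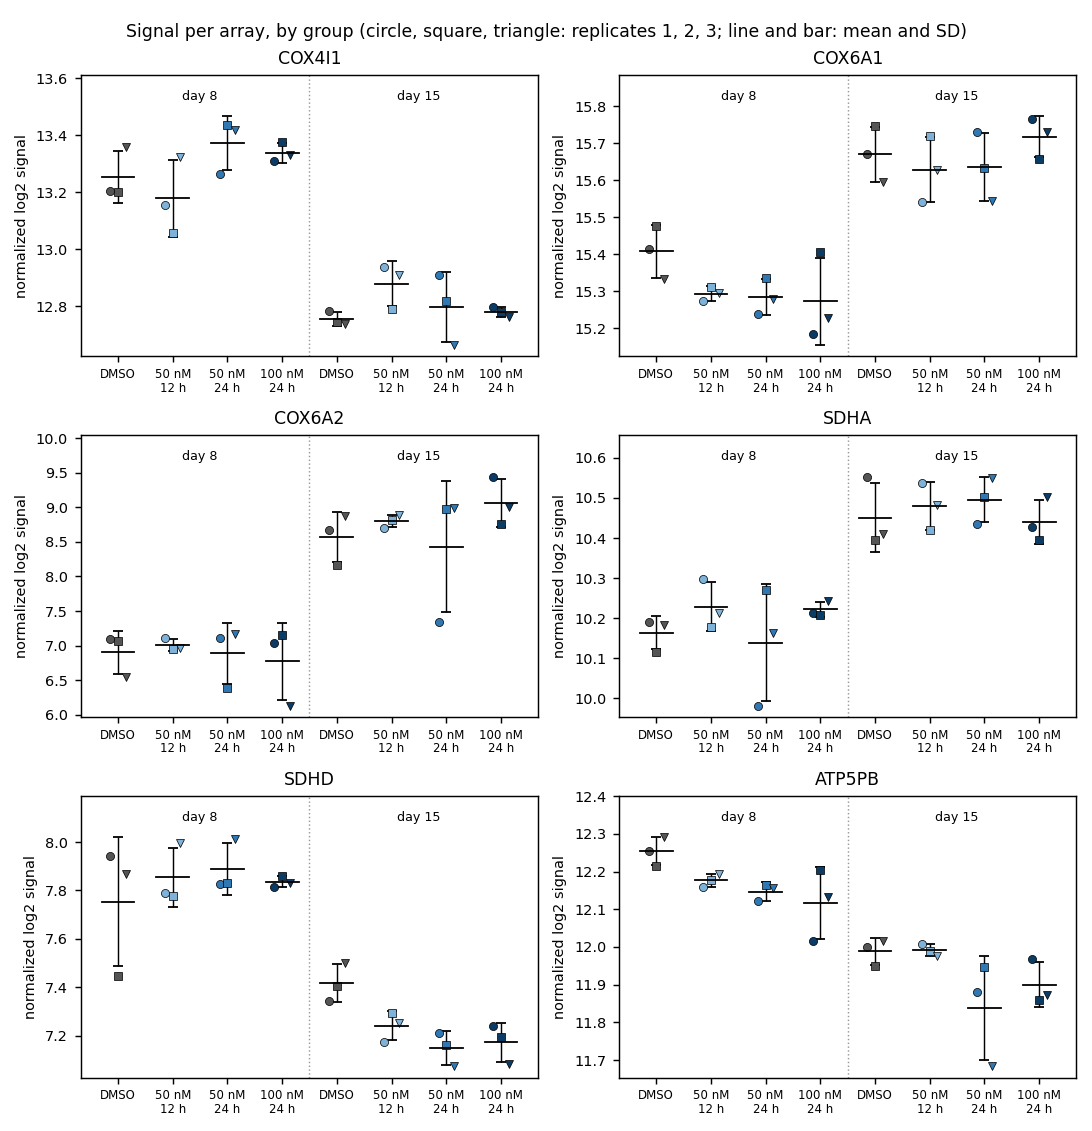
Log2 intensity (y axis) of COX4I1, COX6A1, COX6A2, SDHA, SDHD and ATP5PB on each array in the 8 groups (x axis), with symbols for replicates 1, 2 and 3 and lines and bars for the mean and SD of each group. COX6A2 lies between 6.55 and 7.10 in DMSO on day 8 and between 8.17 and 8.88 in DMSO on day 15.

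Genes that act with the 43 subunits were described from lists. Of 42 assembly factors tested, 8 were called after 100 nM on day 8 (19%), 5 up and 3 down, against 9.48% of all genes, with a median difference of 0.005. UQCC2, needed to build complex III, measured 10.85, 10.84 and 10.70 in DMSO and 11.86, 11.89 and 11.65 after 100 nM, and rose by 1.01 (SE 0.11, limma adjusted p = 1e-05). COX19, a factor of copper supply to complex IV, measured 8.70, 8.93 and 8.87 in DMSO and 7.99, 8.03 and 8.16 after 100 nM, and fell by 0.77 (SE 0.09, limma adjusted p = 3.2e-05). COX17, the copper chaperone of complex IV, rose by 0.57 (SE 0.09, limma adjusted p = 0.00044).

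Of 8 other subunits and isoforms tested, 2 were called after 100 nM on day 8, both up (25%, against 9.48% of all genes). Of these 2, OXA1L inserts proteins into the inner membrane and is not itself a subunit, although the list and its percentage include it. OXA1L rose by 0.47 (SE 0.10, limma adjusted p = 0.0053), and DMAC2L by 0.47 (SE 0.13, adjusted p = 0.025). Of 37 complex I subunits, 3 were called (8.11%, against 9.48% of all genes), 2 up and 1 down. NDUFV3 measured 10.83, 10.61 and 10.76 in DMSO and 11.48, 11.30 and 11.39 after 100 nM, and rose by 0.65 (SE 0.09, limma adjusted p = 7.7e-05). On day 15, 0 genes of these lists were called after any exposure. In assembly factors 1 had an unadjusted p under 0.05 after 100 nM on day 15 (2.38%), and in complex I subunits 2 (5.41%), against 7.21% of all genes. Between DMSO on day 15 and day 8, 11 assembly factors were called (26.2%, against 23.2% of all genes, 6 up and 5 down), of which COX20 had the smallest p (0.37, SE 0.07, limma adjusted p = 0.00098). In the same comparison 9 complex I subunits were called (24.3%, against the same 23.2%, 2 up and 7 down), led by NDUFB5 (-0.69, SE 0.11, limma adjusted p = 6.9e-05), and 0 of the other subunits, among which COX6B2, an isoform known from testis, had the smallest p (0.77, SE 0.29, adjusted p = 0.066).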

How the data were processed

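RNA of LUHMES aggregates was hybridized to single-color Agilent arrays. The authors deposited the scanner intensity of each spot and of its local background, with outlier flags and detection marks (the other columns used), from Feature Extraction 11.5.1.1 (slides 1 and 3) and 12.0.0.7 (slide 2). The authors also deposited a table of normalized log2 values for 21733 probe IDs, of which 19615 were named, used as an alternative.

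Following the methods, median intensities were corrected with normexp (offset 0) and quantile normalized. The methods describe a batch effect for some arrays, washed differently and run at another time, without naming a slide. Slide 1 was taken to be these arrays and was adjusted with parametric ComBat with groups as covariates. A spot was kept if, on 3 or more arrays, it exceeded the negative controls' 95th percentile by a factor of 1.1, flagged values were set to missing, and probes were averaged per gene. Probes were named through RefSeq accessions. No genomic coordinates of probes are given. Groups were compared with limma 3.58.1 (R 4.3.3, with version 1.17.8 of data.table) in 1 fit of 24 arrays (residual degrees of freedom 16, prior 2.37), with two-sided p values adjusted by Benjamini-Hochberg over 21240 genes. Figures used matplotlib 3.10.9 (Python 3.11.15). The procedure was run on simulated data with independent noise and a shift of slide 1 only. Correlation within the other slides, given below without batch correction, was not simulated. Precision is limited by the number of arrays.

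The replicate number is the slide number. Without batch correction, deviations from group means correlated at 0.171 to 0.773 in 84 pairs of arrays with the same number (median 0.458), against a median of -0.354 in 168 other pairs, so that a fit with the slide as a block is given where it changes a call. The group of day 15 DMSO replicate 1 rests on its label, since the name of its scan gives 12 h and does not name DMSO. Without this array COX4I1, COX6A2, ATP5MC2 and ATP5PB were still called between the DMSO groups. The calls of SDHA, SDHD and COX6A1 were lost, and COX7A2 was added. The members and lists were chosen with earlier results of these data known. Named were all called members, paralog isoforms and, per complex, the member of smallest p after 100 nM on each day. UQCRB, SDHB, ATP5PD, UQCRC2, COX7C, UQCR11 and ATP5F1A were added after values were seen. Lists of other subunits, assembly factors, complex I subunits and cell type markers were described by counts and by named genes. For the gene lists these were genes of smallest p on day 8 or between the DMSO groups. COX17 and DMAC2L were named outside this rule. Alternatives changed the signal, scaling, filter, batch step, probe summary and arrays.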

Additional observations from a re-analysis of the deposited data

Results flagged for a closer look

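The effect of 100 nM rotenone for 24 h on day 15 was compared with that on day 8 by an interaction term in limma, with Benjamini-Hochberg adjustment. The effects of 5 genes or probes named above differed between the days. Of all genes 2.44% were called, with 0 of 43 members, 3 of 42 assembly factors (7.14%) and 1 of 37 complex I subunits (2.7%). From the lists, only genes of smallest p on day 8 or between the DMSO groups were looked at. They were thus chosen partly for their day 8 effects. UQCRB differed by -0.74 (SE 0.17, limma adjusted p = 0.025) for the brighter probe, from 0.61 on day 8 to -0.13 on day 15. For the dimmer UQCRB probe the difference was 0.91 (SE 0.19, limma adjusted p = 0.013), from -1.02 to -0.10. Among assembly factors, UQCC2 differed by -0.97 (SE 0.16, limma adjusted p = 0.0019), from 1.01 on day 8 to 0.03 on day 15. COX19 differed by 0.76 (SE 0.13, limma adjusted p = 0.0038), from -0.77 to -0.02. Among complex I subunits, NDUFV3 differed by -0.66 (SE 0.12, limma adjusted p = 0.0056), from 0.65 to -0.01.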

How the results depend on the processing

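Precision was limited by 3 arrays per group, and calls of members on day 8 depended on the processing. COX4I1 and COX6A2 were called between the DMSO groups under all 17 settings tried, with adjusted p values up to 0.024 and 0.017. Over the members named by rule, 240 values kept direction and side of the threshold, 65 kept the direction but lost the call, and 1 reversed. Members named after their values were seen are not in this tally, and several gained calls, such as ATP5PD at 100 nM on day 8 and UQCRC2 and COX7C at 50 nM for 24 h. The 240 values include those of members that were not called at first and had no call to lose. On day 8 at 100 nM, ATP5MC2 kept its call in 9 of 17 settings and COX7B in 8. At 50 nM for 24 h, ATP5MC2 kept it in 10 of 17 and COX7B in 12. At 50 nM for 12 h, CYCS kept it in 7 of 17. The reversed value was SDHD after 100 nM on day 8, at -0.08 without day 8 DMSO replicate 2 (-0.08 to 0.20 leaving out each array). Among the settings added after the data were seen, UQCRB alone by its brighter probe gave 0.61, against -0.20 averaged, and its dimmer probe gave -1.02. The causes were not tested.

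For 100 nM on day 8, against 2 members called, there was 1 with the 75th percentile in place of quantile normalization, 5 with the deposited values, 3 each with a normexp offset of 50, the replicate block and the filter on probes well above background (adding ATP5PD), 3 with the brightest probe (adding UQCRB), and 0 each without batch correction, with only the groups compared and on slides 2 and 3, and 0 to 2 when each array was left out in turn. For 50 nM for 24 h on day 8, against 2, there were 5 with the processed signal, 5 with the 75th percentile, 4 each with a normexp offset of 50, the replicate block and the filter on probes well above background, and 6 with the deposited values. It was 0 without batch correction, with only the groups compared and on slides 2 and 3, and 0 to 3 leaving out an array. For 50 nM for 12 h, against 1, there were 2 with the replicate block, 4 with the deposited values, 0 each with the 75th percentile, without batch correction, with only the groups compared, on slides 2 and 3 and with the brightest probe, and 0 to 1 leaving out an array. Between the DMSO groups, against 7, there were 3 each without batch correction, with only the groups compared and on slides 2 and 3, 11 with the deposited values, and 5 to 8 leaving out an array. For the interaction, against 0, there was 1 with the deposited values (ATP5F1E) and 1 with the brightest probe (UQCRB). The replicate block added no other call than those given above.

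The median over the 43 members moved with the processed signal and with the 75th percentile. It went to 0.09 and 0.11 for 100 nM on day 8, to 0.16 and 0.17 for 50 nM for 24 h, to 0.03 and 0.03 for 50 nM for 12 h, and to -0.13 and -0.13 for 100 nM against 50 nM. On day 15 it went to -0.09 and -0.08 for 100 nM and to -0.10 and -0.10 for 50 nM for 24 h. Between the DMSO groups it went to -0.04 with the processed signal, where the median of all genes was 0.15. For the interaction it went from 0.05 to -0.16 under both, a reversed sign, where the median of all genes was 0.05 and 0.14. Leaving out an array gave medians of -0.01 to 0.06 for 50 nM for 24 h on day 8, -0.08 to -0.01 for 50 nM for 24 h on day 15 and -0.04 to 0.05 between the DMSO groups. Setting saturated spots to missing was not run, since 0 spots were saturated.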

Other observations

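In the deposited table of normalized values, 41 of the 43 members lay within 0.5 of the scanner-based mean, on the log2 scale, and 1 lay over 1 apart. That member was ATP5F1E, the epsilon subunit of ATP synthase, with a mean of 11.92 in the deposited table and 15.37 from the scanner values, and a correlation of 0.631 over the 24 arrays. From the scanner values ATP5F1E differed by -0.04 (SE 0.10, limma adjusted p = 0.89) after 100 nM on day 8. From the deposited values it differed by -0.62 (limma adjusted p = 5.1e-06). With these values it was also called on day 8 at -0.48 after 50 nM for 24 h (limma adjusted p = 9.5e-05). After 50 nM for 12 h it was called at -0.48 (limma adjusted p = 0.00015), and between the DMSO groups at 0.33 (adjusted p = 0.00076). Which probes stand behind the deposited value was not tested.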
